A study of Homo sapiens with 10 samples.

Results

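The genes described here are the replication-independent histone variants, chosen by symbol from the expression table as H1F0, H1FX, H2AFJ, H2AFV, H2AFX, H2AFY, H2AFZ, H3F3A and H3F3B. They are 9 of the 23284 genes listed. K562, an established human line of chronic myelogenous leukemia in blast crisis, was exposed for 48 h to vehicle (DMSO), to CBP30 or to I-CBP112, which both occupy the acetyl-lysine pocket of the CREBBP and EP300 bromodomains. Each compound was used at 2 µM and at 5 µM, with 2 biological replicates in each of the 5 conditions and 10 libraries of polyadenylated RNA in all. All samples carry the same cell line background, so each result describes 1 line and not a tissue.

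Histones package DNA into nucleosomes. The replication-dependent histone genes lie in clusters, lack introns, are expressed in S phase and end their mRNAs in a conserved hairpin, the stem-loop, in place of a poly(A) tail. Histone variants are made throughout the cell cycle, mostly from polyadenylated mRNAs, and are placed into chromatin without DNA synthesis by their own chaperones. In libraries selected for poly(A), variant mRNAs are recovered by their tails, and the replication-dependent genes therefore serve as a comparison whose ends differ.

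The ends of the mRNAs were compared first, because the selection for poly(A) acts on them. The sense strand of the annotated 3′ untranslated regions on hg19 was searched for the histone stem-loop, taken as 16 letters that begin with GG and end with CC, with arms of 6 complementary letters around a loop of 4 and the fixed letters TTT and A between the ends. A match was found in 60 of 64 replication-dependent histone genes with such a region (93.8%). It was found in 1 of the 9 variants, H2AFX, whose mRNA is known to end in either way. Over all 19683 coding genes with such a region there were 82 with a match (0.417%), a count that includes these histone genes. The hairpin of H2AFX is shown with the one most frequent among the replication-dependent genes, which 38 of them hold. Capitals mark the arms of the stem.
H2AFX: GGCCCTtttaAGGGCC
Replication-dependent genes: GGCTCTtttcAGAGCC
The other 8 variants held the polyadenylation signal AATAAA in a 3′ untranslated region, and H2AFX did not. A match or its absence says only which letters are in these windows.

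FPKM, the unit of the deposited table, relates fragments to transcript length and to the mapped fragments of the library, so levels can be compared between genes per length. The read depth of the libraries is unknown. Each of the 7 markers of the line (among them GATA1, KLF1 and the fetal globins HBG1 and HBG2) was detected in the 10 samples, and the lowest single value, 8.40 FPKM, belonged to KLF1, which reached 68.8 FPKM in another sample. Their summed level was 1154 FPKM in either DMSO sample, 463 to 568 at 2 µM CBP30, 450 to 471 at 5 µM CBP30, and 704 to 797 with I-CBP112. Of the 7, 6 were lower than with DMSO at 5 µM CBP30 and 1 was higher (TAL1, log2 fold change 0.43). Among 8 markers of other cell types, MS4A1 was listed at 0 in all samples and 5 passed the filter described below, with EPCAM at 31.8 to 59.7 and CD3D at 15.1 to 27.3 FPKM. Summed over the 8, these markers lay at 77.6 to 79.4 FPKM with DMSO, 67.6 to 89.4 and 61.5 to 65.7 at 2 and 5 µM CBP30, and 67.8 to 71.2 with I-CBP112. At 5 µM CBP30, 3 of the 5 tested markers of other cells were higher than with DMSO and 1 (EPCAM) was lower, with a median log2 fold change of 0.55 and the highest, 1.01, for CD3E. At 2 µM CBP30, 4 of the 5 were higher. Of all tested genes, 21.2% were called higher and 25.4% lower at 5 µM CBP30, and 15.9% higher at 2 µM CBP30. The part of these shifts in the results was not tested.

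Replicate 1 of 2 µM CBP30 stood apart from the other libraries. Its log2 difference from DMSO fell with transcript length (Spearman's rho across 12135 genes = -0.47, a description, since genes are not independent), with a median of 0.30 in the fifth of genes with the shortest transcripts and -0.30 in the fifth with the longest. In replicate 2 the rho was -0.04. Both samples of 5 µM CBP30 had a weaker trend the other way, with a rho of 0.19 in each. Their medians were -0.12 in the fifth with the shortest transcripts and 0.12 in the fifth with the longest. The rho was 0.16 in replicate 1 of 2 µM I-CBP112 and from -0.06 to -0.03 in the other I-CBP112 samples. The comparisons with 5 µM CBP30 therefore carry a length trend too. For each of the 6 tested variants other than H3F3A this library also held the highest value of the 10. The fold changes of the variants at 2 µM CBP30 and the medians of the histone lists are given with and without it. Leaving out a sample leaves 1 library in its group, and the spread in the fit then comes from the other groups only. Calls in such fits, here and below, therefore do not measure the spread of that group.

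H3F3B, which encodes the histone H3.3 and has 4 exons on chromosome 17 from 73772515 to 73781974 (hg19, minus strand), changed most among the variants with interpretable values. It was at 166 and 172 FPKM with DMSO, 325 and 278 at 2 µM CBP30, 284 and 284 at 5 µM CBP30, 197 and 202 at 2 µM I-CBP112, and 239 and 232 at 5 µM I-CBP112. Every treated sample was above both DMSO samples, and only the CBP30 concentrations overlapped with each other. The log2 fold change against DMSO, on the scale of log2(FPKM + 1), was 0.74 at 5 µM CBP30 (standard error 0.0766, adjusted p = 0.000299) and 0.83 at 2 µM CBP30 (adjusted p = 0.00049, limma with Benjamini-Hochberg adjustment over 12788 genes, as for all adjusted p below). At 5 µM I-CBP112 it was 0.48 (adjusted p = 0.0143), and at 2 µM I-CBP112 0.24 (adjusted p = 0.222), which did not pass the threshold of 0.05. In a bulk population, a change of RNA per cell and a change in the makeup of the cells cannot be told apart.

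Without replicate 1 of 2 µM CBP30, which leaves 1 library in that group, the fold change of H3F3B at that concentration was 0.71. Its call at 5 µM CBP30 was kept in all 13 alternative settings, and that at 5 µM I-CBP112 was lost when any of the 4 samples compared was left out. The gene overlaps the start of UNK on the opposite strand. The kit was stranded, but whether the counting used strand is not given in the sources used here, and UNK was at 15.7 to 20.7 FPKM.

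**Figure D1:**
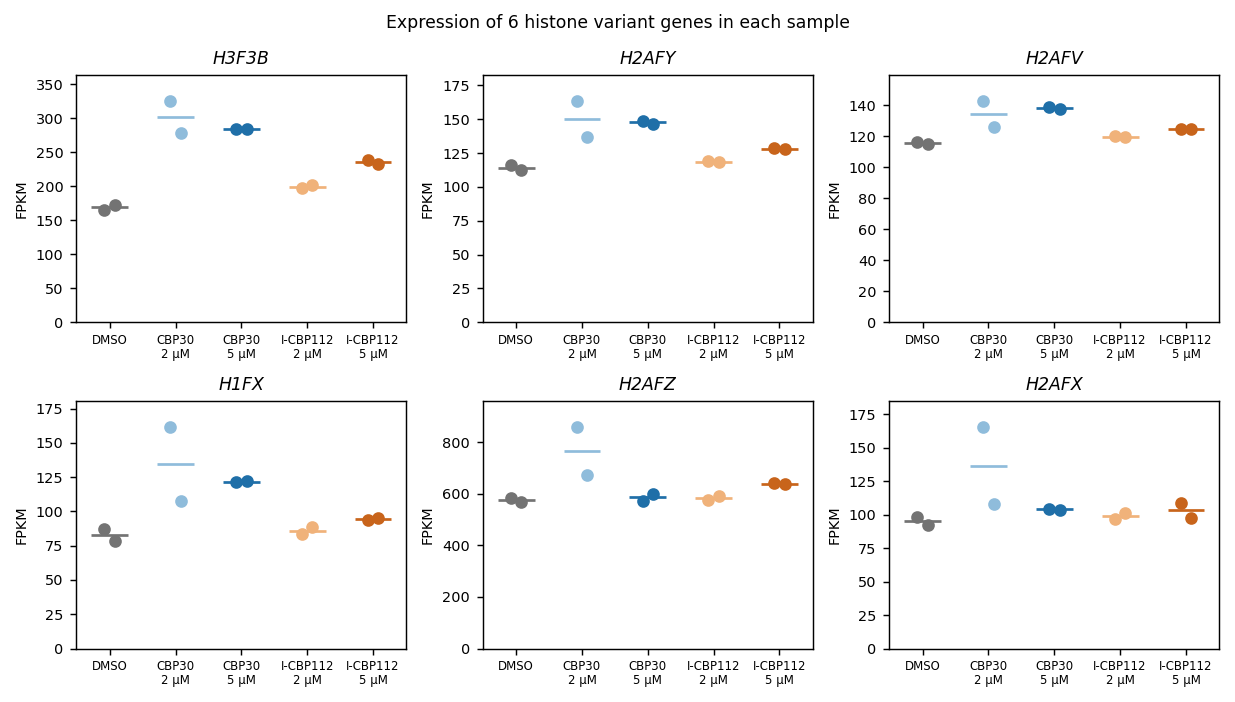
Expression of 6 variants in FPKM (linear axis from 0) in each of the 5 conditions, with 1 point per sample and a line at the mean of 2. H3F3B was above DMSO in each treated sample, and the paler blue points show that replicate 1 of 2 µM CBP30 was the highest sample of each gene.

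Among the H2A variants, H2AFY encodes macroH2A1, a histone with a large additional domain that is enriched on silent chromatin. H2AFY (chromosome 5 from 134670071 to 134735604, minus strand) was at 116 and 112 FPKM with DMSO, 163 and 137 at 2 µM CBP30, 149 and 147 at 5 µM CBP30, 119 and 118 at 2 µM I-CBP112, and 129 and 128 at 5 µM I-CBP112. The samples of each treatment lay above those of DMSO, although by little at 2 µM I-CBP112. The log2 fold change of H2AFY was 0.37 at 5 µM CBP30 (standard error 0.0802, adjusted p = 0.00793) and 0.39 at 2 µM CBP30 (adjusted p = 0.0117). At 5 µM I-CBP112 it was 0.17 (adjusted p = 0.283). Without replicate 1 of 2 µM CBP30 the fold change at 2 µM was 0.26, and without DMSO replicate 2 the call at 5 µM was lost.

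H2AFV and H2AFZ encode the close relatives H2A.Z.2 and H2A.Z.1, which sit at promoters and are exchanged into nucleosomes by dedicated remodelling complexes. H2AFV (chromosome 7 from 44866390 to 44887686, minus strand) had 116 and 115 FPKM with DMSO, 143 and 126 at 2 µM CBP30, 139 and 137 at 5 µM CBP30, 120 and 119 at 2 µM I-CBP112, and 125 and 125 at 5 µM I-CBP112. H2AFZ (chromosome 4 from 100869243 to 100871512, minus strand) was the most highly expressed of the 9 genes by its own row, with 582 and 568 FPKM with DMSO, 857 and 673 at 2 µM CBP30, 571 and 601 at 5 µM CBP30, 574 and 591 at 2 µM I-CBP112, and 641 and 636 at 5 µM I-CBP112. At 5 µM CBP30 the H2AFV samples were all above DMSO, whereas those of H2AFZ overlapped with it.

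The log2 fold change of H2AFV was 0.25 at 5 µM CBP30 (adjusted p = 0.0132) and 0.21 at 2 µM CBP30 (standard error 0.0619, adjusted p = 0.0375), an increase of 19.4% and 16.2% in the mean. Leaving out any sample of DMSO or 5 µM CBP30 ended the call of H2AFV at 5 µM. That of H2AFZ was 0.40 at 2 µM CBP30 (standard error 0.108, adjusted p = 0.0288) and 0.03 at 5 µM CBP30 (95% confidence interval -0.23 to 0.28, adjusted p = 0.87). H2AFZ was lower at 5 µM than at 2 µM CBP30, by a log2 fold change of -0.38 (adjusted p = 0.0326). Without replicate 1 of 2 µM CBP30, the rise of H2AFZ at 2 µM was 0.23 and its difference between the concentrations -0.20. The rise of H2AFV at 2 µM was then 0.12. The difference of H2AFZ between the concentrations was not called without replicate 1 or without replicate 2 of 5 µM CBP30. With the trend with transcript length removed from each sample, H2AFZ rose by 0.12 at 5 µM (adjusted p = 0.0308) and by 0.22 at 2 µM (adjusted p = 0.00385), and the difference between the concentrations was no longer called. The transcript of H2AFZ has 866 bases, and 8.08% of the tested genes have shorter ones.

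H2AFX, the variant phosphorylated at DNA breaks and the one with a stem-loop, is a gene of 1 exon on chromosome 11 from 118964584 to 118966175 (minus strand). It was at 98.3 and 92.5 FPKM with DMSO, 165 and 108 at 2 µM CBP30, 104 and 104 at 5 µM CBP30, 96.5 and 101 at 2 µM I-CBP112, and 109 and 97.6 at 5 µM I-CBP112. Apart from replicate 1 of 2 µM CBP30, the values spanned 92.5 to 109. With all samples fitted, no comparison of H2AFX with DMSO passed the test, with log2 fold changes of 0.12 at 5 µM CBP30 (95% confidence interval -0.28 to 0.53, adjusted p = 0.591), 0.48 at 2 µM CBP30 (adjusted p = 0.0709) and 0.11 and 0.05 at 5 and 2 µM I-CBP112. Without replicate 1, the value at 2 µM CBP30 was 0.18, and without replicate 2 it was 0.79. The rise at 2 µM CBP30 was called with the trend with transcript length removed (0.36, adjusted p = 0.0382) and under quantile normalization (0.41, adjusted p = 0.0291). At 5 µM CBP30 H2AFX was called when only the groups compared were fitted (adjusted p = 0.0452).

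Of the linker histones, which bind DNA where it enters and leaves the nucleosome, H1FX was expressed and H1F0 was close to 0. H1FX (1 exon, chromosome 3 from 129033614 to 129035129, minus strand) had 87.2 and 78.4 FPKM with DMSO, 161 and 108 at 2 µM CBP30, 121 and 122 at 5 µM CBP30, 83.2 and 89.0 at 2 µM I-CBP112, and 94.0 and 95.3 at 5 µM I-CBP112. All CBP30 samples were above all others. The log2 fold change was 0.55 at 5 µM CBP30 (standard error 0.164, adjusted p = 0.0291) and 0.67 at 2 µM CBP30 (adjusted p = 0.0215), and 0.38 at 2 µM without replicate 1. Leaving out any sample of DMSO or 5 µM CBP30 ended the call at 5 µM. An antisense gene listed as H1FX-AS1, at 1.40 to 3.03 FPKM, overlaps H1FX.

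In the DMSO samples the level per length fell in the order H2AFZ, H3F3B, H2AFV and H2AFY, H2AFX and H1FX, and in this order only the neighbours H2AFV and H2AFY overlapped.

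H1F0, the linker histone associated with differentiated cells (chromosome 22 from 38201236 to 38203439), was listed at 0 to 0.0499 FPKM over the 10 samples. H2AFJ, an H2A variant on chromosome 12 from 14927339 to 14930936, was listed at 0 to 0.0449 FPKM. Both fell below the filter of a mean of 0.5 FPKM and were not tested, and without the filter the adjusted p of H1F0 and H2AFJ was 0.489 or more in the comparisons with DMSO. For neither gene did a 50-base stretch of the transcript recur elsewhere in the genome.

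H3F3A (4 exons, chromosome 1 from 226249552 to 226259720) encodes the same protein as H3F3B but could not be measured by its own row. It was listed at 0.209 and 189 FPKM with DMSO, 59.0 and 0.124 at 2 µM CBP30, 0.267 and 1.77 at 5 µM CBP30, 1.11 and 0.0692 at 2 µM I-CBP112, and 25.5 and 0.221 at 5 µM I-CBP112. Replicates of DMSO, 2 µM CBP30 and 5 µM I-CBP112 stood far apart, and the groups overlapped in all 8 comparisons of groups. Its log2 fold changes against DMSO ran from -3.34 to -0.89, each with a standard error of 2.75, and did not pass the test.

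The table also lists H3F3AP4, a processed pseudogene on chromosome 2 from 175584636 to 175585046, at 997 to 1570 FPKM. In the annotation used here the 408 coding bases of H3F3A are 100% identical to the pseudogene and 78.4% identical to H3F3B. The first 60 coding bases are shown to make the difference visible, with capitals where a base differs from H3F3A, at 13 positions of H3F3B.
H3F3A: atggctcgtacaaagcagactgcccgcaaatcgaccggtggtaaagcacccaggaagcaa
H3F3AP4: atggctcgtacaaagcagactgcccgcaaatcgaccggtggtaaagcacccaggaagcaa
H3F3B: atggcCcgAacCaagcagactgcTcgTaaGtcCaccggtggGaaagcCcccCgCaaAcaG
Reads were 50 bases long. Of the 1021 windows of 50 bases in the H3F3A transcript, 960 (94.0%) were also found elsewhere in the genome, 959 of them in H3F3AP4 or within 1000 bases of it. The share was 13.3% for H2AFZ, 12.7% for H3F3B, 11.0% for H2AFV, 0.324% for H2AFX and 0 for H1F0, H1FX, H2AFJ and H2AFY. Most of the reads of H3F3A can thus match more than 1 place, against at most 13.3% of the windows of any other variant. Only exact matches of 1 transcript per gene were counted.

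The H3F3A and H3F3AP4 rows were therefore summed, a choice made after their values were seen. The sum was 1219 and 1187 FPKM with DMSO, 1629 and 1352 at 2 µM CBP30, 1369 and 1403 at 5 µM CBP30, 1151 and 1210 at 2 µM I-CBP112, and 1301 and 1273 at 5 µM I-CBP112. Its spread between replicates was 1.87% of the mean with DMSO (SD, n = 2), where that of H3F3A alone was 141% and that of H3F3AP4 alone 14.1%. The spread of the sum was not clearly below that of H3F3AP4 alone in the treated groups. It was 13.1% against 10.6% at 2 µM CBP30 and 1.70% against 1.62% at 5 µM CBP30. With I-CBP112 it was 3.56% against 3.63% at 2 µM and 1.53% against 0.140% at 5 µM. H3F3AP4 alone was called higher at 5 and 2 µM CBP30 (log2 fold change 0.33 and 0.40). The log2 fold change of the sum was 0.20 at 5 µM CBP30 (standard error 0.0959, adjusted p = 0.121), 0.30 at 2 µM CBP30 (adjusted p = 0.0487), 0.10 at 5 µM I-CBP112 (adjusted p = 0.623) and -0.03 at 2 µM I-CBP112 (adjusted p = 0.968). The value at 2 µM CBP30 was 0.17 without replicate 1 of that group. Over the 13 alternatives it ran from 0.12 to 0.44 and was called in 6, but not without DMSO replicate 1 or DMSO replicate 2. At 5 µM CBP30 the sum was called in 4 of 13, among them removal of the length trend (0.30, adjusted p = 0.000275). The sum is divided by 2 different transcript lengths and is not a level of H3F3A.

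**Figure D2:**
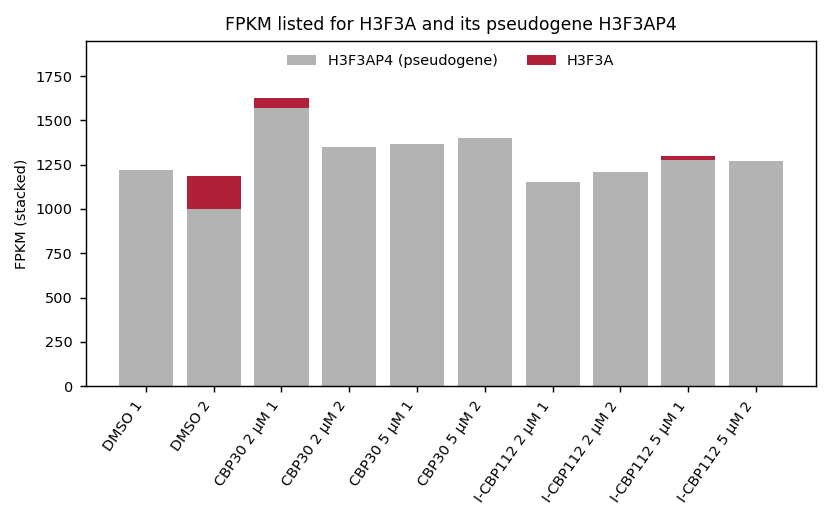
FPKM listed for H3F3A (red) and its pseudogene H3F3AP4 (grey) in each sample, stacked on a linear axis from 0. H3F3A was visible in 3 of the 10 samples, at 189, 59.0 and 25.5 FPKM. Relative to its mean, the sum of the rows varied less between replicates than H3F3A did.

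Over the 7 variants tested, 4 were higher than DMSO at 5 µM CBP30 (H1FX, H2AFV, H2AFY and H3F3B) and 0 lower, where 21.2% of all tested genes were called higher, 25.4% lower and 46.6% in either direction. At 2 µM CBP30, 5 were higher (those and H2AFZ), where 15.9% of all tested genes were (32.1% in either direction). At 5 µM I-CBP112, 1 was higher (H3F3B), against 3.84% of all tested genes (7.12% in either direction). At 2 µM I-CBP112, 0 were called by limma, 1 had an unadjusted p under 0.05, and 0.868% of all tested genes were called higher and 1.6% in either direction. All these comparisons use the same DMSO samples. With 1 library left out, the count at 5 µM CBP30 was 2 without DMSO replicate 1 or without either 5 µM CBP30 sample (H2AFY and H3F3B), and 1 without DMSO replicate 2 (H3F3B). At 2 µM CBP30 it was 1 (H3F3B) without DMSO replicate 1 or without DMSO replicate 2, 5 without replicate 1 of 2 µM CBP30, 6 without replicate 2, and 0 when only the groups compared were fitted.

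**Figure D3:**
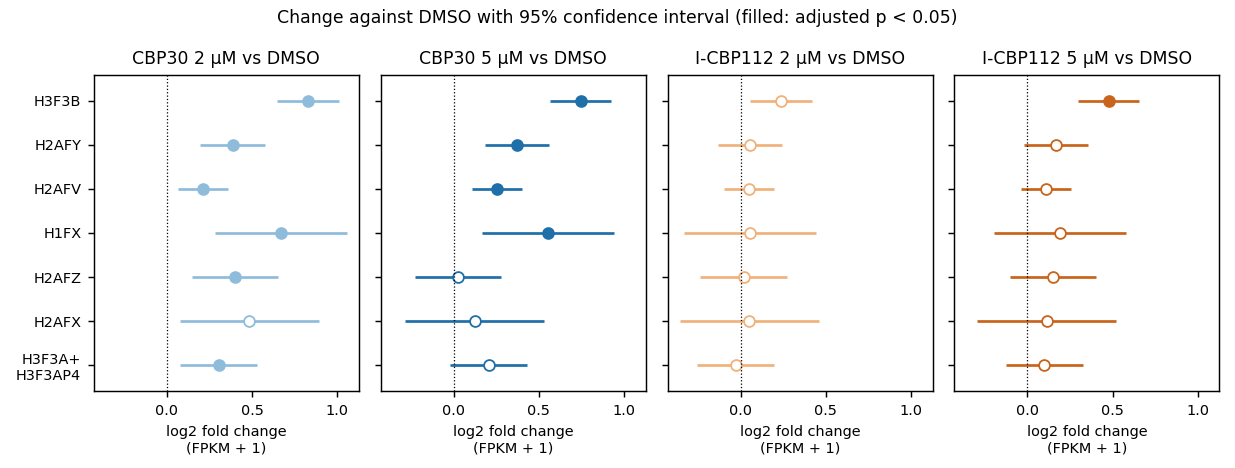
Log2 fold change against DMSO on the log2(FPKM + 1) scale for 6 variants and for the sum of H3F3A and its pseudogene, with 95% confidence intervals from limma (2 samples per group). Filled points passed an adjusted p of 0.05, and H3F3B was the only gene with a filled point for 5 µM I-CBP112.

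The compounds were compared with each other at each matched concentration, which makes 2 pairs. At 5 µM, H3F3B was higher with CBP30 than with I-CBP112 (log2 fold change 0.27, 95% confidence interval 0.09 to 0.45, adjusted p = 0.0356), 1 of 7 variants where 13.6% of all tested genes were higher and 31.4% called in either direction. This call was lost with any of the 4 samples left out. At 2 µM, H3F3B (0.59, adjusted p = 0.00562), H2AFY (0.33, adjusted p = 0.0372) and H1FX (0.61, adjusted p = 0.0482) were higher with CBP30, 3 of 7 against 7.13% of all tested genes (15.6% in either direction). Without replicate 1 of 2 µM CBP30 the differences were 0.48 for H3F3B, 0.20 for H2AFY and 0.32 for H1FX. With either sample of 2 µM I-CBP112 left out, H3F3B alone was called, and 0 were when only the groups compared were fitted. For H2AFX the difference at 5 µM was 0.01 with an interval from -0.40 to 0.42, which leaves differences in either direction possible.

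Between concentrations of the same compound, H2AFZ was called among the 7 variants with CBP30, lower at 5 µM, where 21.3% of all tested genes were lower and 38.9% called in either direction. Without replicate 1 of 2 µM CBP30, the difference was 0.13 for H2AFV and 0.11 for H2AFY, both higher at 5 µM. With I-CBP112, 0 of 7 were called between 5 and 2 µM by limma, 1 (H3F3B) had an unadjusted p under 0.05, and 0.0626% of all tested genes were called. All 6 tested variants other than H3F3A had a higher mean at 5 µM than at 2 µM I-CBP112, and for 5 of them the samples did not overlap, which was so, higher at 5 µM, for 23.1% of all tested genes. In the test of whether the concentration effect differed between the compounds, 0 of 7 variants were called by limma, 2 (H2AFZ and H3F3B) had an unadjusted p under 0.05, and 4.94% of all tested genes were called. The smallest adjusted p, 0.0816, belonged to H2AFZ.

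Against the variants, 46 of the 72 listed replication-dependent histone genes passed the filter. At 5 µM CBP30, 34 of the 46 were higher than DMSO and 1 was lower (HIST3H2A), where 21.2% of all tested genes were higher and 25.4% lower. The median log2 fold change was 1.23, compared with 0.25 over the 7 variants and -0.01 over all tested genes. By class, the median was 1.13 for H1, 0.98 for H2A, 1.87 for H2B, 1.79 for H3 and 1.10 for H4. HIST1H4H rose the most, by 3.71 on the log2 scale, from 24.6 to 334 FPKM (adjusted p = 2.7e-07), and the largest fold change of a variant was the 0.74 of H3F3B. H2AFX, with its stem-loop, was at 0.12. Many replication-dependent genes are near-identical copies between which reads can be split, so the values of single ones are uncertain. Their mRNAs mostly end without the poly(A) tail by which the libraries were selected. Their rows therefore describe only what was recovered, and whether the full level of these mRNAs changed likewise was not tested.

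At 2 µM CBP30, 22 of the 46 replication-dependent genes were higher, where 15.9% of all tested genes were, with a median of 0.71 against 0.40 for the variants. At 5 µM I-CBP112, 17 were higher (median 0.54 against 0.15), and at 2 µM I-CBP112, 11 (median 0.42 against 0.05). Of all tested genes, 3.84% and 0.868% were higher in these comparisons. The medians of the variants include H3F3A, and without it they were 0.31 and 0.44 at 5 and 2 µM CBP30 and 0.16 and 0.05 at 5 and 2 µM I-CBP112. With the trend with transcript length removed, the median at 2 µM CBP30 was 0.52 for the replication-dependent genes, of which 17 of 44 were higher. It was 0.29 for the variants, of which 6 of 7 were, and 20.3% of all tested genes were higher in that setting. Between the concentrations of CBP30, 23 of the 46 replication-dependent genes were higher at 5 µM than at 2 µM and 1 was lower (median 0.51), whereas the median of the variants was -0.12. There 38.9% of all tested genes were called in either direction. For 2 µM CBP30 against 2 µM I-CBP112, 18 of the 46 were higher, where 7.13% of all tested genes were, and the median was 0.34, below the 0.43 of the variants. With the length trend removed these medians were 0.17 and 0.30. Leaving out replicate 1 of 2 µM CBP30 was an alternative for the lists chosen after the data were seen. The median of the replication-dependent genes was then 0.63 against DMSO, 0.63 for 5 against 2 µM CBP30 and 0.35 against I-CBP112. That of the variants was 0.23, 0.11 and 0.20. The order against I-CBP112 and the sign of the variants between the concentrations thus turned with this library. These are descriptions of lists, and the difference between the lists was not tested.

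**Figure D4:**
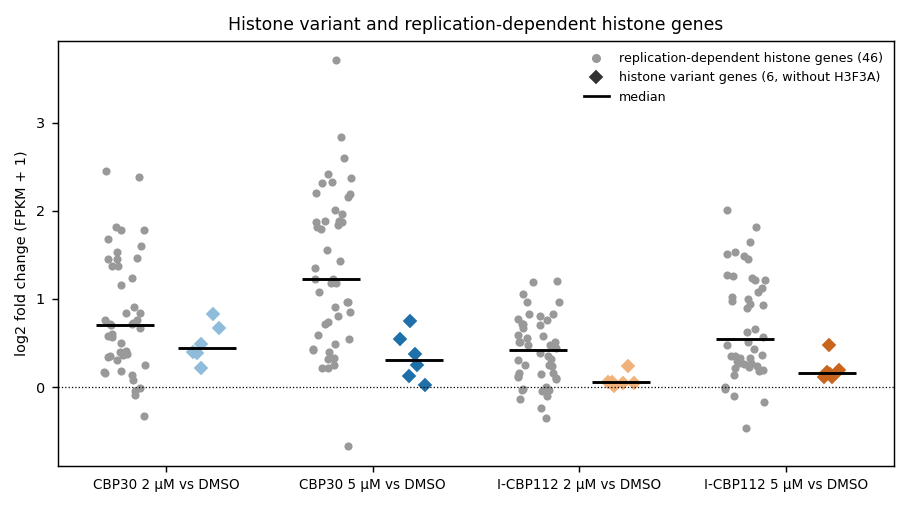
Log2 fold change against DMSO on the log2(FPKM + 1) scale for 46 replication-dependent histone genes (grey circles) and 6 variants (diamonds, without H3F3A), each point 1 gene, with a bar at the median. The grey medians, from 0.42 to 1.23, lie above those of the variants in each treatment, and the points of the lists overlap.

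The genes that handle the variants are described by lists, each to be read beside the 46.6% of all tested genes that were called at 5 µM CBP30. Of 8 genes for the deposition of H3.3, 2 were higher and 3 were lower at 5 µM CBP30. ATRX, a remodeller that acts with DAXX at repeats and telomeres, rose by 0.51 on the log2 scale (adjusted p = 0.0374) and ASF1A, an H3-H4 chaperone, fell by 0.24 (adjusted p = 0.0111). The other called genes, named after their values were seen, were DEK with a log2 fold change of 0.29, HIRA with -0.19 and DAXX with -0.23. At 2 µM CBP30, 1 was higher and 1 was lower, where 32.1% of all tested genes were called in either direction. The median there was -0.17, and the highest value was the 0.25 of DEK. ATRX was higher at 5 µM than at 2 µM CBP30, by 0.72, so its rise was not shared by the concentrations. At 5 µM I-CBP112, 1 was higher and 1 was lower, where 7.12% of all tested genes were called in either direction.

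Of 12 genes for the exchange of H2A.Z, 0 were higher and 3 were lower at 5 µM CBP30, with a median log2 fold change of -0.11. RUVBL2, an ATPase shared by several remodelling complexes, fell from 111 to 65.1 FPKM (log2 fold change -0.76, adjusted p = 0.00349). The others, named after their values were seen, were its partner RUVBL1 (-0.66) and VPS72, the H2A.Z-binding subunit of the SRCAP complex (-0.51). DMAP1 had the highest value of the list, 0.27 (adjusted p = 0.121).

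Of 12 chaperones and importers of newly made histones, 1 was higher and 4 were lower at 5 µM CBP30. ASF1B rose by 0.52 (adjusted p = 0.00237) and IPO4, an importin that carries H3 and H4, fell by 0.55 (adjusted p = 0.00053). Of 11 genes for the transcription and stem-loop processing of replication-dependent histones, 2 were higher and 3 were lower, and the median log2 fold change was -0.21. CASP8AP2, which acts with NPAT at histone gene loci, rose by 0.40 (adjusted p = 0.0475), and ZNF473, a component of the U7 processing machinery, fell by 0.38 (adjusted p = 0.00554). SLBP, the protein that binds the stem-loop, went from 71.4 to 61.6 FPKM (adjusted p = 0.102). At 2 µM CBP30, 0 of the 11 were higher and 2 were lower, where 32.1% of all tested genes were called in either direction. CASP8AP2 was higher at 5 µM than at 2 µM CBP30, by 0.49.

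Among 16 S-phase genes, 6 were higher and 5 were lower at 5 µM CBP30, with a median of 0.04. CCNE2, cyclin E2, rose by 0.83 (adjusted p = 0.000131), and the helicase subunit MCM2 fell by 0.35 (adjusted p = 0.0127). Of 2 tested genes among the other histone variants, CENPA, the centromeric H3, was at 26.0 FPKM with DMSO and 23.7 at 5 µM CBP30 (adjusted p = 0.186), and H3F3C was at 0.483 and 0.624 FPKM (adjusted p = 0.42).

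Across the 10 samples, the expressed variants other than H3F3A moved together to different degrees. All r in this paragraph are on the log2(FPKM + 1) scale. Pearson's r was 0.98 for H2AFV and H2AFY, 0.98 for H1FX and H2AFY, 0.96 for H2AFY and H3F3B and 0.94 for H2AFX and H2AFZ, but 0.56 for H2AFV and H2AFZ. The samples form 5 treatment groups and share replicate 1 of 2 µM CBP30, so these values describe the profiles. The genes most like H3F3B, out of 8990 with a mean of at least 5 FPKM, were TMEM106C (r = 0.994, 60.8 to 113 FPKM), SOCS1 (r = 0.992, 31.8 to 175 FPKM) and IFT52 (r = 0.990, up to 15.1 FPKM). Those most like H3F3A were the small RNA genes SNORD19 (r = 0.978), MIR4489 (r = 0.861) and SNORD73A (r = 0.860). They were listed at 0 in 7, 8 and 8 of the 10 samples. The H3F3A row was itself at 189, 59.0 and 25.5 FPKM in single samples and at 1.77 or less in the others. Its r values therefore rest on few libraries and on a row that could not be measured alone.

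The promoters of 8 variants were matched by symbol in RefSeq (GRCh38.p14), as 250 bases before and 50 after the start, and searched on both strands. CCAAT was found in 6 of the 8 (H2AFJ, H2AFV, H2AFX, H2AFZ, H3F3A and H3F3B), against 35.7% of 27305 promoters of this length. TGACG, the first letters of the cAMP response element, was found in 3 (H2AFV, H2AFY and H3F3B), against 25.0%. The whole element TGACGTCA was found in 0 of the 8 against 1.98% of all promoters, the E-box CACGTG in 0 against 7.43%, and AGATAA (a site of the GATA factors) in 0 against 10.5%. The sequences of 3 are shown, for H3F3B and H2AFY, which rose at both CBP30 concentrations, and for H2AFZ, which did not pass the test at 5 µM, with CCAAT and TGACG or their complements in capitals.
H3F3B, chr17:75779730-75780029, minus strand: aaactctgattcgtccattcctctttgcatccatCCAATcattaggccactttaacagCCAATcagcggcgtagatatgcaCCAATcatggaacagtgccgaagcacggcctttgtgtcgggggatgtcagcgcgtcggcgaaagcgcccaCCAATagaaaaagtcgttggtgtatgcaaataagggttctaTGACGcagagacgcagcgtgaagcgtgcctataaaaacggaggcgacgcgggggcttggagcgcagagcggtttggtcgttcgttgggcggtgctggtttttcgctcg
H2AFY, chr5:135399182-135399481, minus strand: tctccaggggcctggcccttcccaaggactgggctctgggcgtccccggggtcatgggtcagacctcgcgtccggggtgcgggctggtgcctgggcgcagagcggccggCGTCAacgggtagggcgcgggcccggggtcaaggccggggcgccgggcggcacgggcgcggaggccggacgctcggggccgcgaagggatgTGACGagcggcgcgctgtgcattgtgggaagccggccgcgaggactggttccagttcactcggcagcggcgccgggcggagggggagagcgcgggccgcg
H2AFZ, chr4:99950226-99950525, minus strand: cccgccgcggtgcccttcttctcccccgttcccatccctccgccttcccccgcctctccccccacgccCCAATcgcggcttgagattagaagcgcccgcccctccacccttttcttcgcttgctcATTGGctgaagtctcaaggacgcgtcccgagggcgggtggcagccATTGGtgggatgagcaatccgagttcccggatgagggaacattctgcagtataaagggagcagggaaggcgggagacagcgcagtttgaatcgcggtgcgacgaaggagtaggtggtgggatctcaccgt
H3F3B held CCAAT 4 times and TGACG 1 time, H2AFY held TGACG 2 times and no CCAAT, and H2AFZ held CCAAT 3 times and no TGACG. H1FX and H2AFV, not shown, were also called higher at both CBP30 concentrations. The promoter of H1FX held neither CCAAT nor TGACG, and that of H2AFV held CCAAT 4 times and TGACG 2 times. A relation of these letters to the calls was not tested. These are matches of letters, and no binding was measured at them here.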

How the data were processed

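Per the labels, K562 cells were treated for 48 h, and stranded libraries of poly(A)-selected RNA were read as single 50-base reads. The authors deposited FPKM values per gene and sample, and the submitters' processing notes name FastQC, TopHat2 2.0.10, Bowtie 1.0.0, SAMtools 0.1.19, Cufflinks 2.2.1 and Cuffnorm, and the GRCh37/hg19 build. Study methods name Nextpresso. The annotation version and the library scaling are not given in the sources used here. FPKM holds no counts, so precision rests on the spread of 2 samples in each condition.

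The 12788 genes whose mean reached 0.5 FPKM were fitted with limma 3.58.1 (R 4.3.3, eBayes with a trend) after the transformation log2(FPKM + 1), in 1 fit of 5 groups (5 residual degrees of freedom, prior 2.15), with Benjamini-Hochberg adjusted p under 0.05 over all tested genes. The fit was tested on simulated data. Alternatives changed the pseudocount to 0.1 or the filter to none or a mean of 5 FPKM, or used median centring, quantile normalization, a fit of only the groups compared, a replicate block, removal of the length trend (alone and with the block), and leaving out each sample, and the sum of H3F3A and H3F3AP4 was added after the data were seen. Transcript lengths, 3′ ends and positions came from GENCODE on GRCh37, and a length was matched for 92.0% of the genes. Figures were drawn with matplotlib 3.10.9.

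The 9 genes and the gene lists were chosen with earlier results of these data known. The named genes are the 9 variants and, in each list, those with the largest and smallest log2 fold change with 5 µM CBP30. Also named are the 3 genes most correlated with the variants of most positive and most negative fold change there. Outside this rule are SLBP, the pseudogene H3F3AP4, cell type markers, overlapping genes and the genes marked as named after their values were seen.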

Additional observations from a re-analysis of the deposited data

How the results depend on the processing

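Each group had 2 samples, and read depth is unknown. Every comparison with DMSO rests on the same 2 DMSO samples. Over the settings, H3F3B kept its direction in the comparisons with DMSO in all 13 alternatives, with log2 fold changes from 0.72 to 0.93 for 5 µM CBP30 (called in 13) and from 0.71 to 0.94 for 2 µM CBP30 (called in 12). H2AFY was called with 5 µM CBP30 in 12 of 13, and H1FX and H2AFV in 9 of 13.

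Counts of variants called, out of 7, moved as follows. The calls over all tested genes moved with the settings too, so these shifts are not particular to the variants. At 5 µM CBP30, 5962 of 12788 genes were called in the main fit, and 7870 of 12677 when only the groups compared were fitted. When only the groups compared were fitted, the counts were 0 with 2 µM CBP30, 3 with 5 µM I-CBP112, 0 for 5 against 2 µM CBP30, and 5 and 0 for CBP30 against I-CBP112 at 5 and 2 µM. Quantile normalization gave 2 and 1 for I-CBP112 at 5 and 2 µM, 3 for 5 against 2 µM CBP30 and 4 for the compounds at 5 µM. Median centring gave 0 for the compounds at 5 µM. Without the filter, the counts were 0 for 5 against 2 µM CBP30 and 1 for the compounds at 2 µM. Removal of the length trend gave 2 with 5 µM I-CBP112 and 4 for the compounds at 5 µM, where 14.5% and 39.8% of all tested genes were called. Leaving out 1 sample gave 1 to 2 with 5 µM CBP30, 1 to 6 with 2 µM CBP30, 0 to 0 with 5 µM I-CBP112, 0 to 5 for 5 against 2 µM CBP30, 0 for the compounds at 5 µM, 1 to 6 for them at 2 µM and 0 to 5 for the difference of the concentration effects between compounds. The cause was not tested.

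Directions reversed in the comparison of 5 with 2 µM CBP30. H2AFY was at 0.19 (adjusted p = 0.0124), H3F3B at 0.19 (adjusted p = 0.0089) and the sum of H3F3A and H3F3AP4 at 0.34 (adjusted p = 0.0023) under quantile normalization. With the length trend removed, with or without the block, H2AFY was at 0.17 and the sum at 0.17. H2AFY was at 0.11 without replicate 1 of 2 µM CBP30, against -0.14 without replicate 2. All adjusted p are from limma.

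Deviations from the group means were not shared by same-numbered samples (correlations across genes from -0.07 to 0.09 over 10 pairs of conditions), so the numbers were not taken to pair them. With the replicate block, 4 variants were called with 5 µM CBP30, 5 with 2 µM CBP30, 1 and 0 for I-CBP112 at 5 and 2 µM, 1 between the CBP30 concentrations, 0 between those of I-CBP112, 0 between the compounds at 5 µM, 2 at 2 µM and 0 for the difference of the concentration effects. The block together with removal of the length trend called 2 variants with 5 µM I-CBP112 and 4 between the compounds at 5 µM.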
